A study of Mus musculus with 2 samples.

Results

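TRAV14 family rearrangements were the T cell receptor alpha (TCRα) joins made by the 9 copies of the mouse TRAV14 gene, counted in induced T (iT) cells of 2 tissues, thymus and spleen. A clonotype, a distinct CDR3 nucleotide sequence with its reads, was taken when its best J gene was a TRAJ gene and its first-listed V gene belonged to family 14, with or without a D or N suffix or a DV name. They made up 700 of 6089 TCRα clonotypes in the thymus and 896 of 9583 in the spleen, 1596 of 15672 in all. No clonotype that used a TRAV14 gene carried a J gene of another locus.

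The cells came from iR9-ESC, a mouse embryonic stem cell line on the C57BL/6 background that expresses Runx1 and Hoxa9 from 1 inducible transgene, and the hematopoietic progenitors (iHPCs) made from it in culture were transplanted into irradiated B-NDG mice. These hosts, on the NOD background, carry the Prkdc scid mutation, lack Il2rg function and have almost no lymphocytes of their own, and the donor cells were told from host cells by CD45.2. CD4 single positive and CD8 single positive iT cells were sorted in week 6, 15000 per library, and 1 library was made from each tissue, so no difference between them has a replicate check. The sources differ on the thymus sort. The study's account of the experiment gives the naive markers CD62L+ CD44- for both tissues, while its methods give them for the spleen and describe the thymus gate as negative for other lineages and TCRγδ. If the gates differed, gate and tissue cannot be told apart. All cells descend from 1 cell line, and the sources used here do not say whether cells of several mice were pooled.

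TCRα genes are assembled in the thymus by joining a V gene to a J gene, with trimming of the ends and addition of non-templated nucleotides by terminal transferase. A thymocyte can join again: each further join takes a V gene farther upstream and a J gene farther downstream, and deletes what lies between them. In C57BL/6 mice the middle of the TRAV locus is duplicated, so that families such as TRAV14, which encodes the Vα2 chains, exist as copies without a suffix, with D and with N. Vα2 is the alpha chain family of OT-I, the receptor for an ovalbumin peptide on H-2Kb used in many transgenic studies.

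In GENCODE M21 (GRCm38), the 9 copies lay on the plus strand of chromosome 14 in 3 rows. TRAV14D-1 (chr14:52855614-52856166) was the farthest from the J genes, 1301 kb before TRAJ58, and TRAV14-3 (chr14:53763173-53763694) was the nearest, 394 kb before it. The copies with D came first, those with N second and those without a suffix last, and within each row subgroup 1 preceded subgroups 2 and 3. All 9 were annotated as functional V genes. Over the 280 nucleotides of the mature V region, TRAV14D-1 and TRAV14N-1 had the same sequence, as did TRAV14D-2 and TRAV14N-2. The most different pairs, TRAV14-1 with TRAV14D-2 or TRAV14N-2, were 92.9% identical. The pairs with the same sequence are pooled below as TRAV14D-1/N-1 and TRAV14D-2/N-2, which leaves 7 genes that the V region can resolve. The stretch with the most differences shows where most genes differ. TRAV14N-3 and TRAV14-3 are the same in it and differ only outside it. It covers bases 79 to 138 of the V region, from GENCODE M21, and capitals mark the 13 of its 60 bases at which the copies differ.
TRAV14D-1 and TRAV14N-1: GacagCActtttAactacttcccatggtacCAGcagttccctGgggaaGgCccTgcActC
TRAV14D-2 and TRAV14N-2: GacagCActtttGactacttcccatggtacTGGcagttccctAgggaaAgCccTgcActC
TRAV14D-3-DV8: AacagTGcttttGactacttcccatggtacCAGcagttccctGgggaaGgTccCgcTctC
TRAV14N-3: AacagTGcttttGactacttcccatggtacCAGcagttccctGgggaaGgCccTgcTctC
TRAV14-1: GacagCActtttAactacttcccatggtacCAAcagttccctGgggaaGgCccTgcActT
TRAV14-2: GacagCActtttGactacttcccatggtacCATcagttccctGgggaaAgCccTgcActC
TRAV14-3: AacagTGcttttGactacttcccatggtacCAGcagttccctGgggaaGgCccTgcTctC

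The copies did not differ where the V gene enters the CDR3. In all 9 the last 13 bases, from the codon of the conserved cysteine on, were the same.
germline TRAV14 end: tgtgcagcaagtg
This end encodes cysteine, alanine, alanine and serine and leaves 1 base for the next codon. The copy therefore had to be read from the V region before the CDR3, and the name of a copy is less certain than that of the family. Copies tied for the best score in 172 thymus clonotypes (24.6%) and in 305 spleen clonotypes (34%). All but 1 of these in each library were ties within a pair with the same V region, so the D or N name within a pair, and with it the row of the locus, was not read from the V region.

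Some of the most abundant clonotypes show this end in use. In these 8 the junction added 0 to 3 bases, but the thymus clonotype of rank 8 (TRAV14N-3 to TRAJ12, 1005 reads), not printed, had 9 inserted. They are printed with capitals for inserted nucleotides, the bases between the aligned V and J ends. A palindromic base at the V end, such as the c after tgtgcagcaagtg in thymus rank 6, counts as V and stays in small letters.
thymus rank 1, TRAV14D-1/N-1 to TRAJ16: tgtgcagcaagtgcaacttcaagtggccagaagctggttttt
thymus rank 2, TRAV14-2 to TRAJ43: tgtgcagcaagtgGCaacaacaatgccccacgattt
thymus rank 3, TRAV14-2 to TRAJ34: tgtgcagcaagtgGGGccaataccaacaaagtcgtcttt
thymus rank 4, TRAV14-2 to TRAJ34: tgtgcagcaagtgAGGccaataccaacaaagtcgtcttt
thymus rank 6, TRAV14-2 to TRAJ34: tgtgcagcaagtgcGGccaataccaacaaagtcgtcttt
spleen rank 1, TRAV14D-1/N-1 to TRAJ40: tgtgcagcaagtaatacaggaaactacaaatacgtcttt
spleen rank 2, TRAV14-1 to TRAJ13: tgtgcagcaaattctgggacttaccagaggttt
spleen rank 3, TRAV14D-2/N-2 to TRAJ37: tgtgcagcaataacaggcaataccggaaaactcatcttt
Of the J genes in these joins, TRAJ16 (chr14:54203134-54203194) and TRAJ40 (chr14:54177921-54177981) entered the 2 leading clonotypes, and TRAJ31 (chr14:54187895-54187951) was the most frequent partner in both libraries. Their germline sequences begin as follows.
TRAJ16: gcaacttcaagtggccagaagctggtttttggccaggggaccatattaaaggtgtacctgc
TRAJ40: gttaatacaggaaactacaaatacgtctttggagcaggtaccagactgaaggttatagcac
TRAJ31: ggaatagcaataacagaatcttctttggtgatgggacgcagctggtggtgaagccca

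The TRAV14 family made up a larger share of clonotypes in the thymus library than in the spleen library. Thymus TCRα clonotypes were TRAV14 in 11.5% (Wilson interval at 95% confidence, 10.7% to 12.3%) and spleen ones in 9.35% (8.78% to 9.95%). The unadjusted p of a two-sided Fisher's exact test was 1.83e-05, and the p adjusted by Benjamini and Hochberg's method across all 19 comparisons was 7.60e-05. The test compares these 2 libraries and not the tissues, and the intervals here and below cover counting error only. By clonotypes the family ranked 3 in the thymus and 4 in the spleen, after TRAV6 and TRAV7 in both and TRAV12 in the spleen. By reads the order was different. TRAV14 took 118531 of 918063 TCRα reads in the thymus (12.9%, interval 12.8% to 13.0%) and 238523 of 1820314 in the spleen (13.1%, interval 13.1% to 13.2%). Reads without molecular identifiers are not molecules, so these narrow intervals leave out amplification.

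1 clonotype weighed heavily on the reads of the spleen. The join of TRAV14D-1/N-1 to TRAJ40 had 27883 reads, 11.7% of the family and 1.53% of all TCRα reads, and was the second most abundant TCRα clonotype of that library. The next had 5219 reads. No read of this CDR3 was found in the thymus, where 3 reads would be 0.000327% of TCRα reads. In the thymus the leading clonotype, TRAV14D-1/N-1 to TRAJ16, had 3096 reads, 2.61% of the family. Without the leading clonotype of each library, the family took 12.6% of thymus and 11.8% of spleen TCRα reads. The 10 largest clonotypes held 10.8% of TRAV14 reads from thymus and 21.4% of those from spleen, and 9.21% and 11.6% once the leading one was set aside. As an effective number (the exponent of Shannon's entropy over reads) the family had 433 thymus and 352 spleen clonotypes, and without the leading clonotypes it was 450 and 509. The order of this number, which grows with the count of clonotypes, thus turned on that 1 spleen clonotype, whereas per clonotype the spleen was less even in either case: the effective number was 61.8% of the thymus and 39.3% of the spleen clonotypes, and 64.3% and 56.8% without the leading ones. The median TRAV14 clonotype had 109.5 reads in the thymus (other TCRα clonotypes 81) and 145.5 in the spleen (others 100).

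All 9 copies were used in both libraries. In the thymus TRAV14D-3-DV8, a copy that can also join delta genes, led with 153 clonotypes, 21.9% of the family (interval 19.0% to 25.1%). TRAV14D-1/N-1 followed with 123, TRAV14N-3 with 119, TRAV14-2 with 108, TRAV14D-2/N-2 with 80, TRAV14-1 with 75 and TRAV14-3 with 42. The intervals of neighbours in this order overlapped down to TRAV14-1, while those of TRAV14D-3-DV8 and TRAV14-2 did not overlap, and TRAV14-3 lay below all others. In the spleen TRAV14D-1/N-1 led with 239 clonotypes, 26.7% (23.9% to 29.7%), ahead of TRAV14D-3-DV8 with 173, TRAV14D-2/N-2 with 123, TRAV14-2 with 103, TRAV14N-3 with 92, TRAV14-1 with 89 and TRAV14-3 with 77. There the leading gene lay above all others, TRAV14D-3-DV8 lay above the remaining 5, and the intervals of neighbours below it overlapped.

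Grouped by subgroup number, which the copies of the 3 rows share, subgroup 1 was less frequent and subgroup 3 more frequent in the thymus library. Subgroup 1 held 198 of 700 thymus clonotypes (28.3%) and 328 of 896 spleen clonotypes (36.6%; Fisher's exact test, adjusted p = 0.00131). Subgroup 3 held 44.9% and 38.2% (Fisher's exact test, adjusted p = 0.0146). Subgroup 2, at 26.9% and 25.2%, did not pass the test (Fisher's exact test, adjusted p = 0.582). For subgroup 3 the call was lost among productive clonotypes alone (5.65 points, Fisher's exact test, adjusted p = 0.0733) and without the clonotypes found in both libraries (5.70 points, Fisher's exact test, adjusted p = 0.0524). The names themselves are uncertain. Of 78 CDR3s named TRAV14 in both libraries, the subgroup was the same in 43 and the resolvable gene in 30. Each CDR3 was listed under 1 V name per library, so subgroup and gene shares can depend on the name listed, which was not tested.

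By reads, both leading clonotypes belonged to TRAV14D-1/N-1. TRAV14D-1/N-1 took 39.0% of TRAV14 reads in the spleen and 30.9% without it, the highest share of the 7 genes in either case. In the thymus it took 22.5%, and 20.4% without the leading clonotype, which put it below TRAV14D-3-DV8 at 21.3%. TRAV14-2 took 18.8% in the thymus library and 8.26% in the spleen library.

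**Figure D1:**
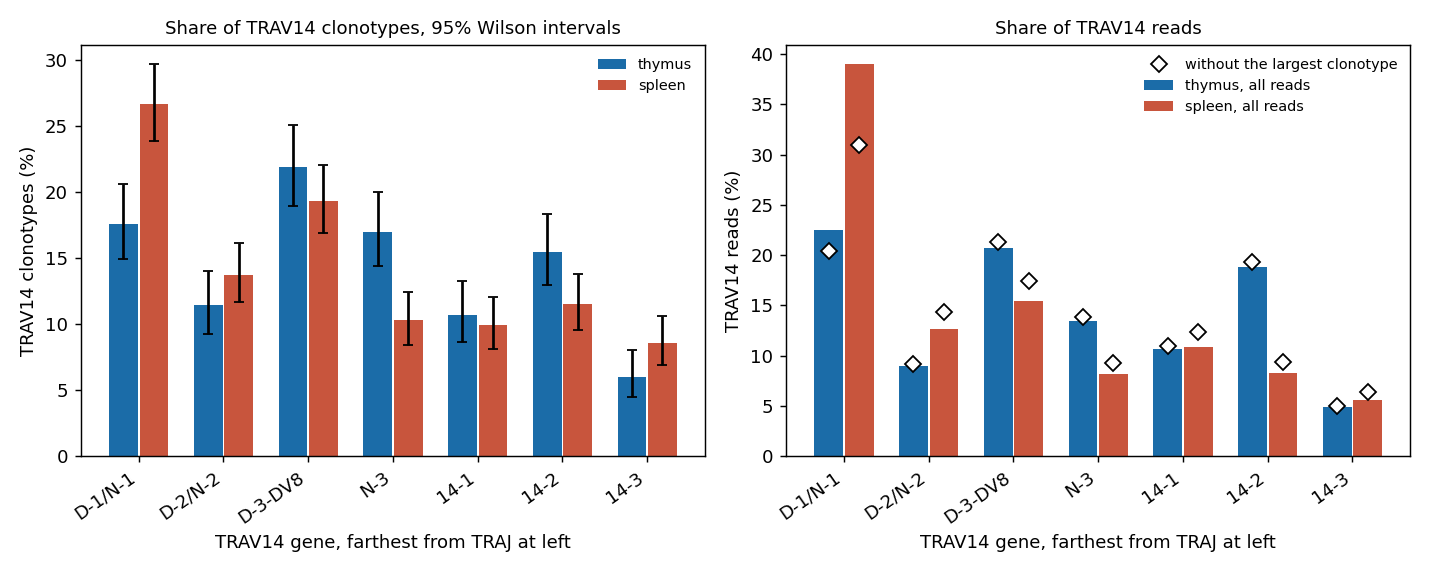
Share of the 7 resolvable TRAV14 genes in clonotypes (left, percent of 700 thymus and 896 spleen clonotypes, bars with 95% Wilson intervals) and in reads (right, percent, with white diamonds for the share after the largest clonotype is left out), ordered along the locus. TRAV14D-1/N-1 is the highest spleen bar on both sides, at 26.7% of clonotypes and 39.0% of reads, and falls to 30.9% of reads without the largest clonotype.

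The share of 3′ and 5′ J genes differed widely between TRAV14 genes, but not between the family and the rest. With the J genes split in 3 regions, 3′ (TRAJ23 and lower numbers), middle (TRAJ24 to TRAJ44) and 5′ (TRAJ45 and higher, next to the V genes), the family as a whole did not stand apart from other TCRα clonotypes. Joins to 3′ genes made up 38.6% against 37.6% in the thymus (Fisher's exact test, adjusted p = 0.725) and, for the spleen, 38.1% against 38.5% (Fisher's exact test, adjusted p = 0.836). Joins to 5′ genes made up 16.1% against 14.4% in the thymus (Fisher's exact test, adjusted p = 0.294) and, for the spleen, 12.7% against 15.1% (Fisher's exact test, adjusted p = 0.0891). The 2 libraries did not differ in 3′ joins (0.513 points, Fisher's exact test, adjusted p = 0.836). With the bound at TRAJ30 the thymus 3′ difference, the spleen 5′ difference and that between the libraries changed sign, as the thymus 3′ difference did among productive clonotypes.

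Within the family the copies spread widely, which is given here as a description without a test. In the thymus the 3′ share was 65.9% for TRAV14D-1/N-1 (57.1% to 73.6%), 51.3% for TRAV14D-2/N-2, 47.1% for TRAV14D-3-DV8, 37.0% for TRAV14N-3, 17.3% for TRAV14-1, 9.26% for TRAV14-2 (5.11% to 16.2%) and 21.4% for TRAV14-3. The values fell in this order, which is that of the first copy of each gene along the locus, down to TRAV14-2. The pooled genes have a second copy farther along, and the clonotypes named TRAV14D-1 and TRAV14N-1 joined 3′ genes in 63.5% of 104 and 78.9% of 19. These shares do not compare the 2 copies, since clonotypes that tied between them could be listed under the D name. The 5′ share ran the other way, from 7.32% for TRAV14D-1/N-1 to 40.5% for TRAV14-3 (27% to 55.5%). In the spleen the 3′ share was 49.8% for TRAV14D-1/N-1, 42.3% for TRAV14D-2/N-2, 31.2% for TRAV14D-3-DV8, 65.2% for TRAV14N-3, 36% for TRAV14-1, 15.5% for TRAV14-2 and 10.4% for TRAV14-3. TRAV14-3 joined 5′ genes in 53.2% of its spleen clonotypes (42.2% to 64.0%), against 5.02% for TRAV14D-1/N-1 (2.90% to 8.57%). The 3 copies without a suffix together, the nearest to the J genes, joined 3′ genes in 14.2% of thymus and 20.8% of spleen clonotypes, the clonotypes listed under a D name did so in 53.4% and 41.8%, and those under an N name in 43.0% and 57.0%. In the spleen the share under N names was thus above that under D names. These names do not order the rows, since 171 thymus and 304 spleen clonotypes tied between a D and an N copy.

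In the spleen the 3′ share did not fall steadily along the locus. TRAV14-1, at 36%, lay above TRAV14D-3-DV8, at 31.2%, and TRAV14N-3 broke the order most. Of the thymus clonotypes of TRAV14N-3, 37.0% joined 3′ genes (28.8% to 45.9%), and of its spleen clonotypes 65.2% did (55.1% to 74.2%), intervals that did not overlap. It differs at 5 of 280 bases from TRAV14-3, which lies nearest to the J genes, and TRAV14-3 joined 3′ genes in 21.4% of thymus and 10.4% of spleen clonotypes. TRAV14-1 also had a higher 3′ share in the spleen, 36% (26.8% to 46.3%) against 17.3% (10.4% to 27.4%), with intervals that overlapped narrowly, and a lower 5′ share, 7.87% against 29.3%. Neither difference was tested.

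**Figure D2:**
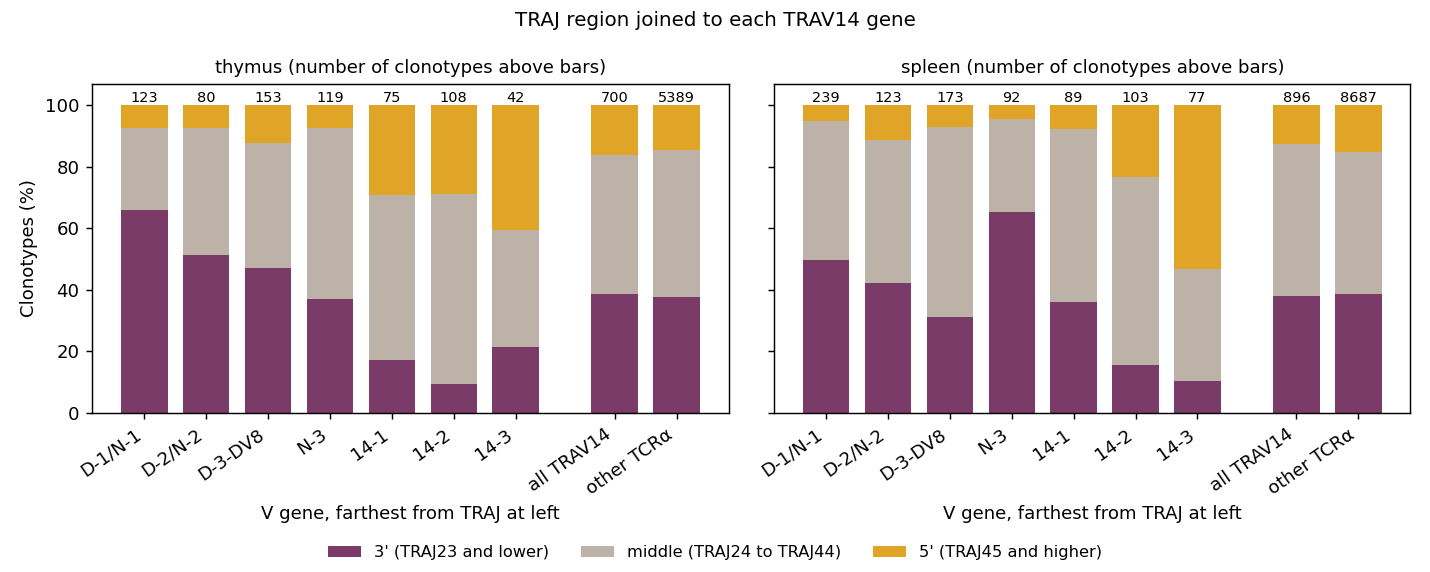
Percent of clonotypes joined to 3′, middle and 5′ TRAJ genes for each TRAV14 gene in order along the locus, for the family and for other TCRα clonotypes, with the number of clonotypes above each bar. The 3′ part falls from 65.9% to 9.26% between TRAV14D-1/N-1 and TRAV14-2 in the thymus, while in the spleen TRAV14N-3 stands out at 65.2%.

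Among the 53 TRAJ genes seen in TCRα clonotypes, TRAV14 joined 45 in the thymus and 44 in the spleen, in 232 and 259 combinations of copy and J gene. TRAJ3 and TRAJ25 in the thymus and TRAJ29 in the spleen were each counted through 1 clonotype. Its junction held the constant gene TRAC or another J gene, as described below. TRAJ31, in the middle of the J cluster, was the most frequent partner in both, with 54 thymus clonotypes (7.71%, interval 5.96% to 9.93%) and 56 spleen clonotypes (6.25%, 4.84% to 8.03%). Other TCRα clonotypes joined it in 5.33% and 5.40%, and in the spleen it was their most frequent J gene too. In the thymus TRAJ37 (42 clonotypes), TRAJ21, TRAJ22 and TRAJ49 (35 each) followed. In the spleen the next were TRAJ23 (49), TRAJ32 (47), TRAJ15 (46) and TRAJ30 (41). TRAJ23 was at 5.47% against 5.20% of others, and TRAJ32 at 5.25% against 3.53%. TRAJ15 was at 5.13% against 3.32%, and TRAJ30 at 4.58% against 2.73%. These differences were not tested. By reads TRAJ40 led in the spleen with 14.1% of TRAV14 reads, which became 2.77% without the largest clonotype.

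Some J genes were not joined to TRAV14, which allows a share of up to 0.429% in the thymus and 0.335% in the spleen when taken as 3 clonotypes of the total, or of up to 0.546% and 0.427% by the Wilson interval. TRAJ20, TRAJ41, TRAJ51, TRAJ54, TRAJ59, TRAJ60 and TRAJ61 had no TRAV14 clonotype in either library, TRAJ29 had none in the thymus, and TRAJ3 and TRAJ25 had none in the spleen. These genes were rare in TCRα clonotypes of other families as well: TRAJ25, with 10 in the spleen, was the most frequent of them. TRAJ51, TRAJ54, TRAJ60 and TRAJ61 are annotated as pseudogenes.

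TRAJ33, the J gene of the OT-I alpha chain, was joined to TRAV14 in 3 thymus clonotypes (0.429%, against 2.10% of other TCRα clonotypes) and in 17 spleen clonotypes (1.90% against 2.31%). The V gene of the OT-I chain, TRAV14-1, was joined to it in none of the 3 in the thymus and in 4 in the spleen, with 591 reads, 3 of them productive. The difference between the libraries was not tested.

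The pairs that led by clonotypes were not those that led by reads. TRAV14-2 to TRAJ31 held 13 clonotypes in the thymus, 1.86% of the family, with 1839 reads. TRAV14D-3-DV8 to TRAJ31 held 23 in the spleen, 2.57% of the family, with 7680 reads, and the largest of them had 1541. By reads, TRAV14D-1/N-1 to TRAJ16 led in the thymus with 4687 reads in 5 clonotypes, of which the largest gave 66.1%. TRAV14D-1/N-1 to TRAJ40 led in the spleen with 30874 reads in 13 clonotypes, of which the largest gave 90.3%. TRAV14-2 to TRAJ34 was second by reads in the thymus, with 4417 in 9 clonotypes, and its 3 leading clonotypes (ranks 3, 4 and 6 above) had 1203, 1158 and 1025 reads. Each pair of these 3 differed at 1 of 39 bases, at the junction, and none was found in the spleen. The spread of junctions within a leading pair is shown by the 5 most abundant spleen clonotypes of TRAV14D-3-DV8 with TRAJ31, of 1541, 812, 650, 586 and 545 reads, with inserted nucleotides in capitals.
rank 1: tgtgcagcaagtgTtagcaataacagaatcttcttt
rank 2: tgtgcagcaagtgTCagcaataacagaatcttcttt
rank 3: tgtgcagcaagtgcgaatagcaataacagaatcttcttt
rank 4: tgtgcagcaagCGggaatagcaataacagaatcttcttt
rank 5: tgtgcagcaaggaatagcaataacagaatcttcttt
They differ around the junction, by trimming, by a palindromic base at the V end in rank 3 and by at most 2 inserted bases.

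**Figure D3:**
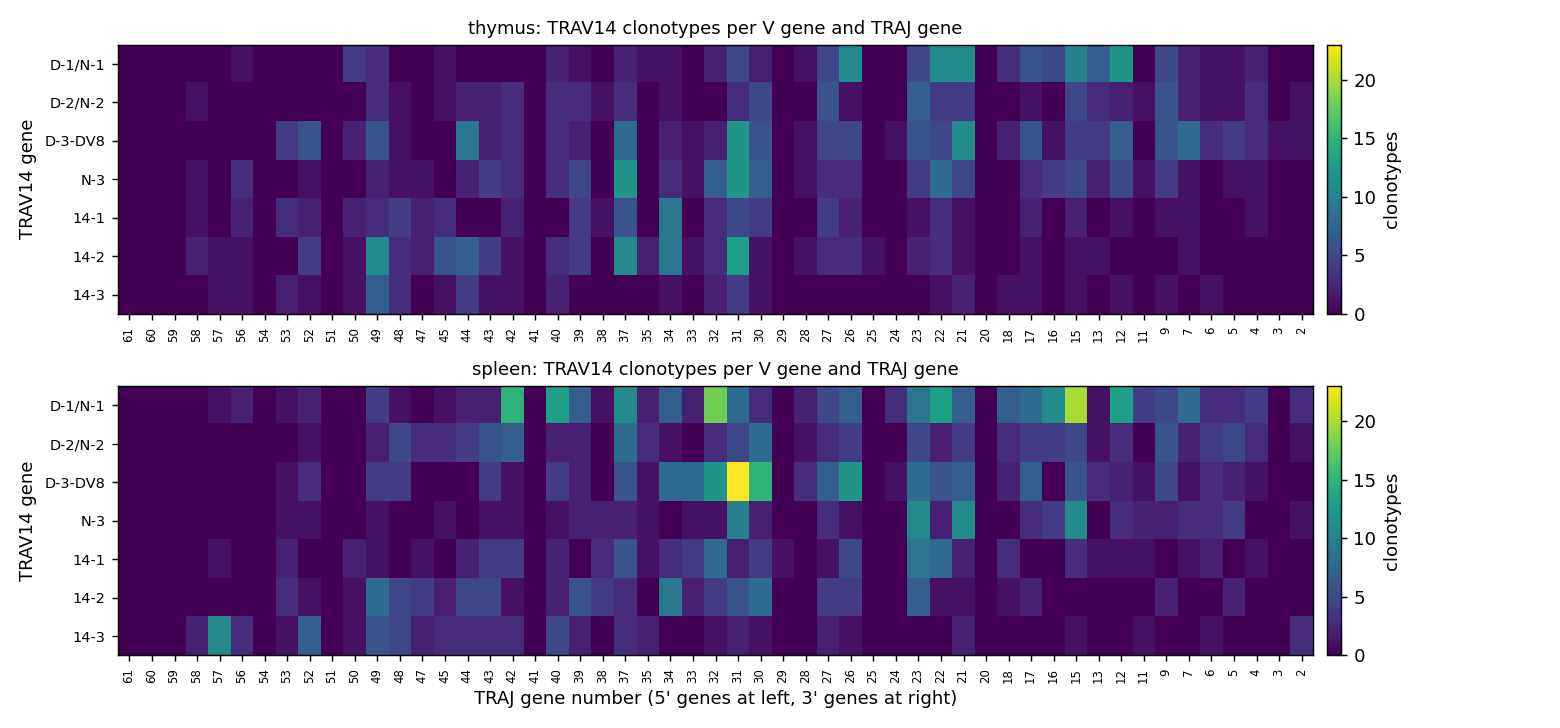
Number of clonotypes for each TRAV14 gene (rows, in order along the locus) and each TRAJ gene (columns, by number, 5′ genes at left) in the thymus and the spleen, on 1 colour scale. The brightest cell is TRAV14D-3-DV8 with TRAJ31 in the spleen at 23 clonotypes, and the brightest cells of TRAV14-3 lie at the left. Those of TRAV14D-1/N-1 lie towards the right in the thymus. In the spleen they also include middle J genes, such as TRAJ32 with 18 clonotypes and TRAJ42 with 15.

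As a description of likeness, the numbers of clonotypes per TRAJ gene were compared with those of the 15 other families with 50 or more clonotypes. Over 52 TRAJ genes in the spleen, Pearson's r with TRAV14 was highest for TRAV6 at 0.875, TRAV12 at 0.857 and TRAV13 at 0.834. Over 47 genes in the thymus it was highest for TRAV16 at 0.779, TRAV9 at 0.776 and TRAV10 at 0.769. It was lowest in both for TRAV19 (0.0899 and 0.0999). The families of a library share its RNA and its J genes, so the coefficients are not independent.

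TRAV14 joins were productive more often than other TCRα joins. A clonotype is called productive when its CDR3 is in frame and holds no stop codon. In the thymus 578 of 700 TRAV14 clonotypes were productive (82.6%, interval 79.6% to 85.2%) against 73.6% of 5389 others (Fisher's exact test, adjusted p = 2.47e-06). In the spleen 681 of 896 were productive (76.0%, 73.1% to 78.7%) against 68.7% of 8687 others (Fisher's exact test, adjusted p = 3.02e-05). Of the 16 families with 50 or more clonotypes, TRAV14 had rank 3 in the thymus, after TRAV16 and TRAV10, and rank 2 in the spleen, after TRAV16. Its interval overlapped those of both in the thymus and that of TRAV10 in the spleen. The TRAV14 productive share was higher in the thymus library than in the spleen library (Fisher's exact test, adjusted p = 0.00338). That of the others was also higher in the thymus library, 73.6% against 68.7%, which was not tested.

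The clonotypes that were not productive were mostly out of frame, 118 in the thymus and 211 in the spleen, with 4 in each that were in frame and held a stop codon. They had few reads: productive clonotypes held 93.6% of thymus and 91.6% of spleen TRAV14 reads, and 93.4% and 90.5% without the largest clonotypes. Among genes, TRAV14D-3-DV8 was the highest in both libraries (in the spleen level with TRAV14-3 at 83.1%), with 143 of 153 thymus clonotypes (93.5%, 88.4% to 96.4%) and 144 of 173 spleen clonotypes (83.2%, 77.0% to 88.1%). TRAV14D-1/N-1 was the lowest in the thymus at 76.4% (68.2% to 83.1%), and TRAV14D-2/N-2 the lowest in the spleen at 66.7% (57.9% to 74.4%). The most abundant out-of-frame thymus clonotype, with 517 reads, was a join of TRAV14D-2/N-2 to TRAJ22.
out of frame, thymus: tggcagctggcaactcatcttt
Its 22 bases match TRAJ22 alone, so its V name rests on sequence before the CDR3, and in the spleen its 1 read was assigned to TRAV19. In the spleen, joins of TRAV14-2 and of TRAV14N-3 to TRAJ23 led the out-of-frame clonotypes with 353 reads each.

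**Figure D4:**
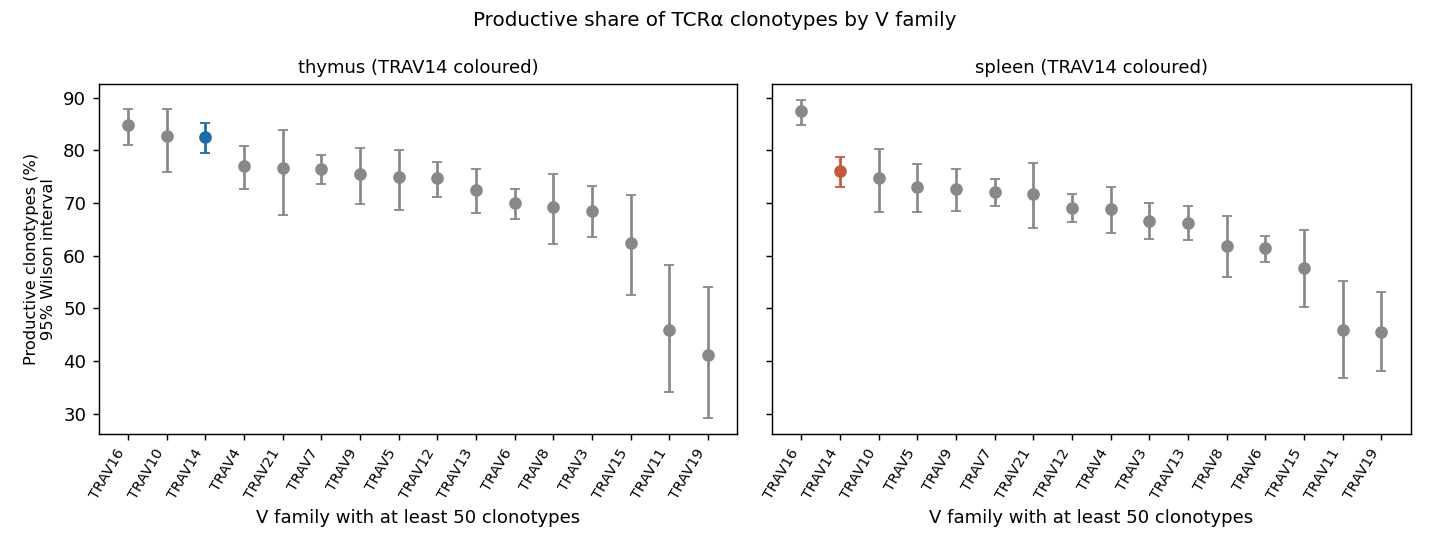
Productive share (percent of clonotypes, points with 95% Wilson intervals) of each TRAV family with 50 or more clonotypes in the thymus and the spleen, ranked, with TRAV14 coloured. TRAV14 has rank 3 of 16 at 82.6% in the thymus and rank 2 at 76.0% in the spleen, below TRAV16.

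A smaller share of productive TRAV14 joins than of all other joins pooled lacked insertions. In the thymus 158 of 578 productive TRAV14 clonotypes had no inserted nucleotide (27.3%, 23.9% to 31.1%) against 32.4% of the others (Fisher's exact test, adjusted p = 0.0233). In the spleen 230 of 681 had none (33.8%, 30.3% to 37.4%) against 41.7% (Fisher's exact test, adjusted p = 0.000174). Single families reached the same level or lower, among them TRAV9 (25.4%) in the thymus and TRAV10 (29.1%) and TRAV7 (33.8%) in the spleen, while TRAV16 lay above (45.2% in the thymus and 47.2% in the spleen). The share of the thymus TRAV14 library was also below that of the spleen library (Fisher's exact test, adjusted p = 0.0233). The others showed the same order, 32.4% and 41.7%, which was not tested. Both calls that involve the thymus were lost when clonotypes with at most 1 insertion were counted (adjusted p = 0.0708 against the others and 0.101 between the libraries, Fisher's exact test), or when palindromic bases at the V end were counted as inserted (0.118 and 0.264). The mean number of insertions was 2.45 (SD 4.07 over 578 clonotypes) in the thymus and 2.12 (SD 3.07 over 681) in the spleen, against 2.17 and 1.87 in the others. The spleen showed a split by frame that the thymus did not: 52.1% of its TRAV14 clonotypes that were not productive lacked insertions (45.4% to 58.7%) against 21.3% in the thymus (15% to 29.4%). Among other families these shares were 52.7% and 34.8%. They were not tested.

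By reads the largest clonotype weighed on this share. Clonotypes without insertions held 56.1% of productive TRAV14 reads in the spleen and 49.6% without the largest clonotype, which itself had no insertion, and 31.5% and 29.5% in the thymus. The V end was untrimmed in 40.7% of productive clonotypes of both libraries (235 of 578 and 277 of 681), and 4 or more V bases were lost in 18.2% and 19.7%, against 25.9% and 24.3% in productive clonotypes of other families.

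The mean CDR3 of productive TRAV14 clonotypes was shorter than that of all other families pooled. The mean was 39.8 nucleotides (SD 4.69, 578 clonotypes) against 40.8 (SD 4.85, 3967 clonotypes) in the thymus, with a two-sided permutation test giving an adjusted p of 7.60e-05. It was 39.99 (SD 3.92, 681 clonotypes) against 40.7 (SD 4.91, 5970 clonotypes) in the spleen, with an adjusted p of 0.00185 in the permutation test. TRAV14 was not the shortest family: TRAV4 (39.1 and 39.2 nucleotides), TRAV8 (38.3 in both) and TRAV13 (39.6 and 39.1) had lower means in thymus and spleen, and TRAV16 (43.5 and 43.8) and TRAV15 (45.5 and 45.7) had higher ones. The most frequent length was 13 codons in both, in 34.4% of thymus and 32.7% of spleen clonotypes. Long loops were less frequent: 16 codons occurred in 1.04% of TRAV14 against 6.30% of other clonotypes in the thymus and in 2.20% against 6.5% in the spleen.

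**Figure D5:**
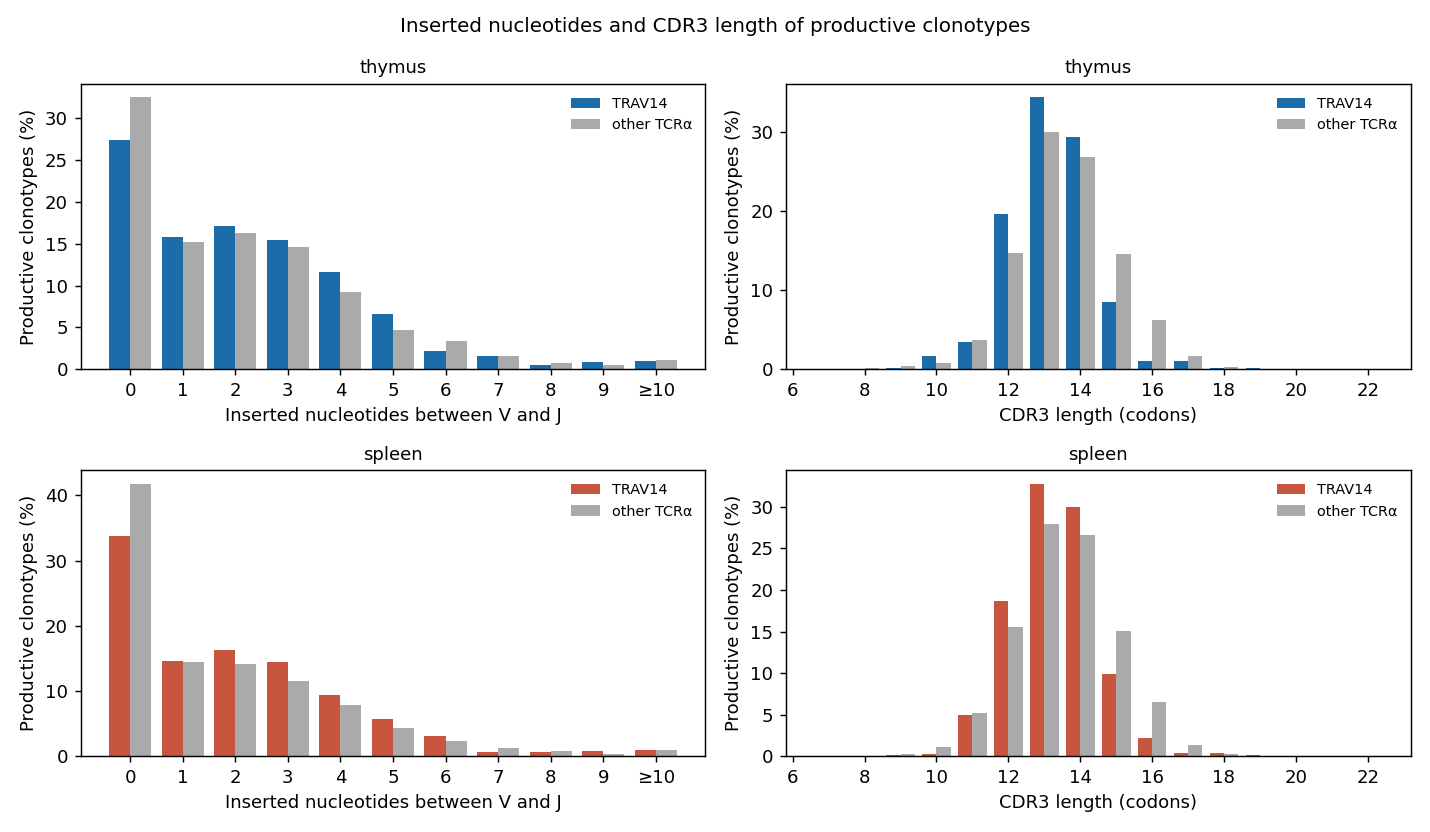
Inserted nucleotides (left, 10 means 10 or more) and CDR3 length in codons (right, 7 to 22 shown) of productive TRAV14 and other TCRα clonotypes, in percent of productive clonotypes. The bar at 0 insertions is lower for TRAV14, 27.3% against 32.4% in the thymus and 33.8% against 41.7% in the spleen, and so are the bars from 15 to 17 codons.

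Most loops began as the germline V end does. Cysteine, alanine and alanine stood at the first 3 positions in 99.8%, 98.8% and 95.5% of productive thymus clonotypes and in 99.9%, 99.3% and 94.3% of spleen clonotypes. The germline serine at position 4 was kept in 64.5% (60.5% to 68.3%) and 61.7% (58.0% to 65.3%), and arginine was next in 10.2% and 9.99%. A V end with its last G in place allows only glycine, alanine, valine, aspartate or glutamate at position 5. These residues made up 48.4% in the thymus and 49.0% in the spleen. Among clonotypes whose V end was aligned as untrimmed they made up 94.5% and 93.9%, a share that the genetic code largely sets. The exceptions were not examined. A cysteine inside the loop was found in 4 thymus and 2 spleen clonotypes. The shortest productive CDR3 was the same in both libraries, a join of TRAV14D-2/N-2 to TRAJ39 of 27 bases, with 1 thymus read and 525 spleen reads.
shortest: tgtgcagcaggtgccaagctcacattc

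Some CDR3 proteins were encoded by several nucleotide sequences. In the thymus 37 of 538 TRAV14 proteins (6.88%) were reached by more than 1 nucleotide sequence, at most 3, and in the spleen 66 of 599 (11%), at most 5. The shares for other TCRα proteins were 8.24% of 3603 and 12.4% of 5115. Such a share can grow with the number of sequences pooled, so these larger groups are not a like comparison, and the difference was not tested. The TRAV14 proteins with more than 1 nucleotide sequence held 15.1% of thymus and 29.0% of spleen reads of productive TRAV14 clonotypes.

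Clonotypes found in both libraries were more frequent in the TRAV14 family than elsewhere in the spleen. A clonotype was counted when its exact CDR3 occurred in a TCRα clonotype of the other library. In the spleen 102 of 896 were found in both (11.4%, 9.47% to 13.6%) against 6.88% of the others (Fisher's exact test, adjusted p = 3.02e-05). In the thymus 95 of 700 were (13.6%, 11.2% to 16.3%) against 11.2% (Fisher's exact test, adjusted p = 0.105), and the test was passed there only among clonotypes with at least 2 reads (2.66 points, Fisher's exact test, adjusted p = 0.0378) or 10 reads (3.10 points, Fisher's exact test, adjusted p = 0.0158). When the V family and the J gene had to match as well, the spleen difference went from 4.50 to 2.62 points (8.71% against 6.09%, Fisher's exact test, adjusted p = 0.00654) and the thymus one from 2.34 to 1.33 points (Fisher's exact test, adjusted p = 0.359). Neither match required the same V gene within a family, and all TRAV14 copies end alike. Of the 102 spleen clonotypes, 30 had the same resolvable gene in the thymus, and others were not compared at that level. Among productive clonotypes alone the spleen difference was 5.13 points (Fisher's exact test, adjusted p = 0.000126). Spleen TRAV14 clonotypes were also larger than others (median 145.5 against 100 reads), and a comparison at equal size was not made. Clonotypes of both libraries were larger, with a median of 193 reads against 100 in the thymus and 245 against 135.5 in the spleen. They were productive in 90.5% against 81.3% and in 92.2% against 73.9%, and productive ones lacked insertions in 52.3% against 23% and in 53.2% against 30.7%. Of the 10 largest clonotypes, 3 in the thymus and 6 in the spleen were among them. The leading thymus clonotype was sixth in the spleen, with 1815 reads.

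The V name of these clonotypes was often not the same in the 2 libraries, while the J gene always was. Of the 95 thymus clonotypes, 78 had a TRAV14 gene in the spleen as well, 12 had a TRAV7 gene, 3 a TRAV10 gene, 1 a TRAV3 gene and 1 TRAV19. Of the 102 spleen clonotypes, 78 had a TRAV14 gene in the thymus, 15 a TRAV7 gene and 9 a TRAV10 gene. Among the 78, the copy was the same in 27, the resolvable gene in 30 and the subgroup in 43. The join of rank 2 in the spleen, with 5219 reads as TRAV14-1 to TRAJ13, had 55 thymus reads as TRAV14D-2/N-2 to TRAJ13. The join of rank 3, with 4896 reads as TRAV14D-2/N-2 to TRAJ37, had 424 thymus reads as TRAV14N-3 to TRAJ37. The 3 genes annotated for TRAV10 share the first 11 bases of the TRAV14 end, as do TRAV7-2 and TRAV7D-2, but the other TRAV7 genes share 7 or 8. TRAV3-2, TRAV3D-2 and TRAV3N-2 share all 13, and TRAV3 was the other name of 1 clonotype. Whether the shared V ends bear on the differing names was not tested. No CDR3 occurred more than once in a library (7732 distinct CDR3s in 7732 thymus clonotypes, 11826 in 11826 spleen clonotypes), so equal CDR3s made with several V genes would be listed under 1 V name. How often this happened was not tested.

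Most of the longest insertions matched TCRα gene segments other than the named V and J. Of the 10 thymus and 7 spleen TRAV14 clonotypes with 15 or more inserted bases, 7 and 5 held at least 20 bases in a row of TRAC, the constant gene of the alpha chain, from the start of its exon. They had 9 thymus reads and 5 spleen reads in all, at most 3 for 1 clonotype. The J name given to them thus rests on few or no bases after the run, and TRAJ3 in the thymus and TRAJ29 in the spleen were listed for the family through such a clonotype only. Such a run was in 1% of TRAV14 clonotypes in the thymus (0.485% to 2.05%) against 0.167% of others (9 clonotypes, 0.0879% to 0.317%), and for the spleen in 0.558% (0.239% to 1.30%) against 0.541% (47 clonotypes, 0.407% to 0.719%). These shares were not tested. The 2 longest thymus junctions held another J gene instead: the longest productive one (TRAV14-3 to TRAJ17, 31 reads, 111 bases) held 61 of the 66 bases of TRAJ18, and the longest of all (TRAV14-2 to TRAJ25, 18 reads, 148 bases) held 57 of the 60 bases of TRAJ26, which made up the only clonotype with TRAJ25. They are shown with the matching run in capitals, beside a clonotype with TRAC (TRAV14D-3-DV8 to TRAJ30, 3 reads).
with TRAJ18: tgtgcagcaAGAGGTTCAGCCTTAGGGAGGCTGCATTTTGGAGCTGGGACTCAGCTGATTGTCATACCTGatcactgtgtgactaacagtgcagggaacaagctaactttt
with TRAJ26: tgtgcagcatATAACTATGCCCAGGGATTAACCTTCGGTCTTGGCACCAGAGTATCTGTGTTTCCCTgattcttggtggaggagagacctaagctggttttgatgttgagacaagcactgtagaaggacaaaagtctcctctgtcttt
with TRAC: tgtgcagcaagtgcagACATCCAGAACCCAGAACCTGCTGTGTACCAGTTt
No call of the 19 tests changed without the clonotypes that held TRAC. In the spleen the longest productive TRAV14 junction, of 78 bases, rested on 1 read.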

How the data were processed

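TCR cDNA from 2 libraries, 1 per tissue, was made with a 5′ RACE kit (SMARTer Mouse TCR a/b) and sequenced on a MiSeq. Per the labels and the study's methods, bcl2fastq made the reads and the authors aligned and assembled them into clonotypes with MiXCR. The files the authors deposited hold, per clonotype, a read count and its fraction of the library. The V, D and J reference used by the authors is not given in the sources used here. Coordinates and germline sequences came from GENCODE M21 (GRCm38).

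Only the deposited counts, gene hits, CDR3 sequences and alignment positions were used. Members were taken by first-listed V gene and first J hit. Inserted nucleotides were the CDR3 bases between the aligned V and J ends, and shares have 95% Wilson intervals. Shares were compared with two-sided Fisher's exact tests and mean lengths with a two-sided permutation test of 100000 resamples, with Benjamini-Hochberg adjustment over 19 tests and a threshold of 0.05. A clonotype counted as 1 observation. Since some are in both libraries, independence is approximate, and with 1 library a tissue the tests compare libraries. Named were all TRAV14 copies, the 5 leading TRAJ partners and those never joined, TRAJ33, and per library the leading pairs by reads and by clonotypes, the 3 leading productive and the leading out-of-frame clonotype, those of the top 10 in both libraries, the longest and shortest productive CDR3, and the 3 families with the most similar TRAJ use. TRAJ40, the TRAV14-2 to TRAJ34 joins and the long insertions were chosen after their values were seen. Alternatives were read minimums of 2 and 10, merging of 1-base variants, leaving out ties, productive clonotypes only, other insertion and TRAJ bounds, stricter matching, thinned reads and leaving out the largest clonotype. Palindromic bases, shared clonotypes, TRAC-holding clonotypes and the largest clonotype in all tests were alternatives chosen after seeing the data. The members and lists were chosen with earlier results of these data known. Python 3.11.15, numpy 2.4.6, pandas 2.3.3, scipy 1.17.1 and matplotlib 3.10.9 were used, and the tests were tested on simulated data.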

Additional observations from a re-analysis of the deposited data

How the results depend on the processing

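Of 162 tested results under alternatives, 148 kept direction and side of the threshold, 6 lost their call, 2 gained one and 6 changed sign. Differences are in percentage points, and the cause of a change was not tested. For clonotypes of both libraries in the thymus, the difference from other TCRα clonotypes was 2.66 with at least 2 reads and 3.10 with at least 10, and both passed. The thymus 3′ TRAJ difference from others, not called, became -1.40 among productive clonotypes, -1.18 with the TRAJ30 bound and -0.308 without clonotypes of both libraries. The thymus minus spleen 3′ difference became -0.0179 with that bound and -0.381 without clonotypes of both libraries, and the spleen 5′ difference became 0.826 with that bound. Subgroup 3 lost its call among productive clonotypes (5.65) and without clonotypes of both libraries (5.70). The share without insertions lost its call in the thymus against others with at most 1 insertion (-4.54) or palindromic bases (-3.45), and between libraries likewise (-5.23 and -3.32). Among productive clonotypes the read shares were 14.2% (thymus) and 14% (spleen), and 12.6% and 11.8% without the largest clonotype. With 1 library a tissue, no alternative covers variation between mice. Reads were not counted by molecular identifier, and 27 thymus and 29 spleen clonotypes had 1 read.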
